A study of Mus musculus with 4 samples.

Results

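The Hox genes encode homeodomain transcription factors that lie in 4 clusters of the mouse genome, Hoxa on chromosome 6, Hoxb on chromosome 11, Hoxc on chromosome 15 and Hoxd on chromosome 2. They were taken as all features of the array whose gene symbol, or its current name, was Hox followed by a cluster letter and a number. This gave 37 genes out of 19909, measured by 48 features out of 38880. The clusters held 10, 10, 8 and 9 measured genes, from A to D. One of the features of Hoxd11 was annotated with a clone name (E230017H14Rik) that is now a synonym of that gene.

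Gene order within a Hox cluster follows the order of expression along the body axis, so that low paralog numbers are used in the hindbrain, middle numbers in the neck and trunk, and high numbers in the lumbar region, tail, distal limbs and genital tract. Genes with the same number in different clusters are called a paralog group. The cerebellum forms from the front end of the hindbrain, a territory that is kept free of Hox expression, whereas the medulla and pons behind it express the low paralog groups from retinoic acid-responsive enhancers and keep them on through trithorax proteins and off elsewhere through Polycomb proteins. Hox proteins bind DNA with TALE-class partners of the Pbx and Meis families.

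The study compared cerebella dissected on postnatal day 0 from C57Bl/6 mice with the genotype Smarca5 cKO, a conditional knockout of the gene for the ISWI chromatin remodelling ATPase Snf2h, with those of wild type C57Bl/6 mice. Each of 4 two-colour arrays carried RNA of both genotypes, from 3 RNA samples per genotype. The cKO sample 227 and the wild type sample 224 were on replicate 1, cKO 225 and wild type 229 on replicate 2, cKO 231 and wild type 230 on replicate 3, and cKO 231 and wild type 224 on replicate 4. Replicates 1 and 3 had the cKO RNA in Cy5, and replicates 2 and 4, the dye flips, had it in Cy3. The labels used here name neither the Cre line that drives the deletion nor the number of animals behind an RNA sample, so the spread between arrays may be in part technical.

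Values below are log2 ratios, cKO over wild type, after each array was centred on its median. The log base of the deposited values is not stated and was taken as 2, and the direction is likely, because the labels place the cKO in channel 2 on every array, but it is not stated with the values. A set of 49 features had ratios beyond 5 in size on all arrays, with medians of -7.02, 7.07, -6.39 and 6.60 on replicates 1 to 4, so these followed the dye of the cKO channel and not the genotype. Ratios correlated across all genes between -0.087 and 0.047 for the 6 pairs of arrays. The features named Smarca5 and D030040M08Rik, which RefSeq now gives to the same gene, had -0.36, -1.16, -1.43 and -0.75, and 0.01, 0.34, 0.10 and 0.47 on replicates 1 to 4, so features of the targeted gene differed in sign. A further feature, 9230115A19Rik, which RefSeq now names as the pseudogene Smarca5-ps, had -1.10, -1.59, -1.21 and -1.95. The feature named Smarca5 and that of the pseudogene were thus lower in the cKO on all 4 arrays in the direction assumed, which checks the labels in part, and where these features lie relative to the deleted part is not given in the sources used here. The deposited values hold no levels, so markers could not show which cell types a sample contained. The number of arrays limits the precision.

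Replicate 1 stood apart for the Hox genes. The genes were named by symbol, but the group was selected on the ratios of replicate 1, which were known to differ, so the values of this comparison are given as a description. On replicate 1, 14 of the 37 Hox genes had a ratio above 1, where 5.31% of all genes did, and 2 had a ratio below -1, where 5.90% of all genes did. Nothing is read from these counts beyond their description, because the values were used in choosing the genes. Of the 10 highest genes on replicate 1, 5 were Hox genes, as were 8 of the 30 highest and 10 of the 100 highest. None of the 100 highest genes was a Hox gene on replicate 2, 3 or 4 (0 on each). The median over the Hox genes was 0.50 on replicate 1, against -0.20, -0.175 and -0.11 on replicates 2 to 4, while the median over all genes lay between 0 and 0.01 on the 4 arrays.

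**Figure D1:**
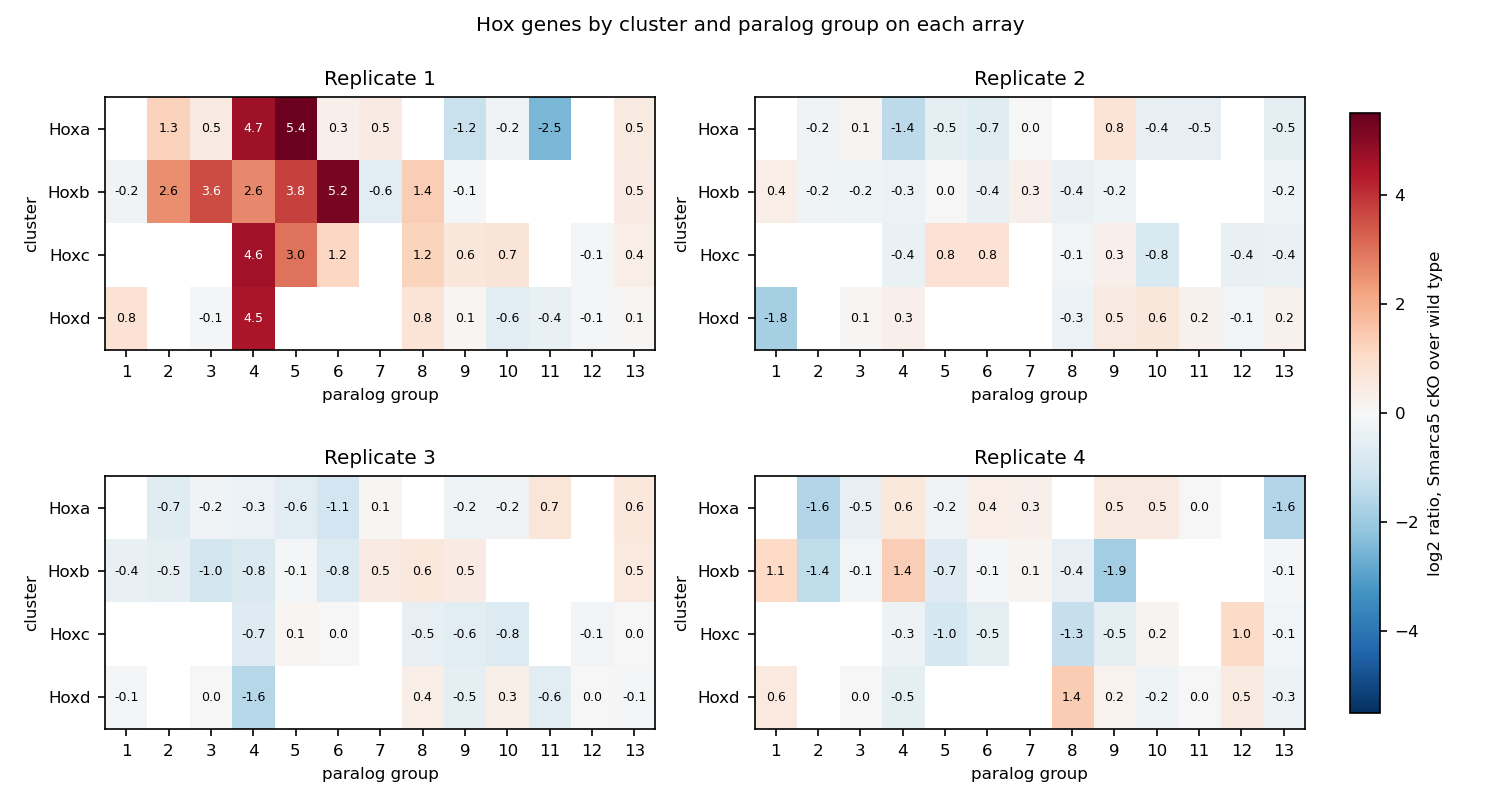
Log2 ratios of cKO over wild type for each Hox gene, with clusters in rows and paralog groups in columns, for each of the 4 arrays. Empty cells hold no value. On replicate 1 the cells above 1 lie in paralog groups 2 to 6 and 8, with a highest value of 5.41 for Hoxa5, and the other arrays have no cell above 1.39.

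The high ratios of replicate 1 lay in the low and middle paralog groups, in all of the clusters. In paralog groups 2 to 5, 11 of 12 genes were above 0 and 10 of 12 above 1, with a median of 3.29. In groups 6 to 8, 7 of 8 genes were above 0 and 4 were above 1, with a median of 0.96. In groups 9 to 13, 7 of 15 genes were above 0 and none above 1 (0 of 15), with a median of -0.05. Group 1, which had 2 measured genes, had -0.19 for Hoxb1 and 0.78 for Hoxd1. In bulk tissue, more cells of a type that expresses a Hox gene and more RNA of it per cell cannot be told apart.

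The promoters of the highest gene of each cluster for which RefSeq gave one are shown so that the start regions of genes with high ratios on replicate 1 can be compared. RefSeq tables of GRCm38.p6 held promoters, from 250 bases before to 50 after the start, for 22 of the 37 Hox genes (24 windows). Hoxb3, Hoxb5 and Hoxb6, each higher than Hoxb4 on replicate 1, had no window. The windows are chr6:52204538-52204837 on the minus strand for Hoxa5, chr11:96318017-96318316 on the plus strand for Hoxb4, chr15:103034145-103034444 on the plus strand for Hoxc4 and chr2:74721728-74722027 on the plus strand for Hoxd4. Capitals mark the retinoid receptor half-site AGGTCA or, for a match on the opposite strand, its complement TGACCT.
Hoxa5: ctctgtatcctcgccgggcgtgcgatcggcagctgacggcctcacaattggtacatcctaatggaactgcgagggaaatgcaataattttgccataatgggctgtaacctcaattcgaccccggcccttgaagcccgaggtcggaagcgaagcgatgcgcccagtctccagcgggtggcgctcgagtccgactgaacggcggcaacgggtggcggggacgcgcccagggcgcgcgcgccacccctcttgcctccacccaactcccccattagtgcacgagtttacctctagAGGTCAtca
Hoxb4: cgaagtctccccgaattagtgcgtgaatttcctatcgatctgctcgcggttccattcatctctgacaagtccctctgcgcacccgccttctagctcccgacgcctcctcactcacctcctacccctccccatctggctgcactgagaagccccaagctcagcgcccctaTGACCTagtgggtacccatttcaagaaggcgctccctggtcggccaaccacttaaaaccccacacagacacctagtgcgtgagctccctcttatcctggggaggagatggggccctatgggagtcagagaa
Hoxc4: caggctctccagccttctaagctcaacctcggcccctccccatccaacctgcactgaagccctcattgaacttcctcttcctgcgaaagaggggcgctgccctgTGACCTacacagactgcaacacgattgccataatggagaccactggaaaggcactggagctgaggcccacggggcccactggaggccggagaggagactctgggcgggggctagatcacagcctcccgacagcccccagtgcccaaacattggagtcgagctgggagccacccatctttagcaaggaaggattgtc
Hoxd4: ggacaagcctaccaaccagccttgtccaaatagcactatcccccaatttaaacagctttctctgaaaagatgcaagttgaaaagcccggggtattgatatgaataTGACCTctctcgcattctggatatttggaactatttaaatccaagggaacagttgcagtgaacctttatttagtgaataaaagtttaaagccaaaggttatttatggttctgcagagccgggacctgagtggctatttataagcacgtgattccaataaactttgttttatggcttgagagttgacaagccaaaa
The half-site had 1 match in each of these 4 windows, first base at position 42 in Hoxa5, -81 in Hoxb4, -146 in Hoxc4 and -145 in Hoxd4, counted from the start. On both strands it was found in 7 of the 24 Hox windows, or 29.2%, and in 16.3% of all 32851 windows of that length. The 7 windows belonged to Hoxa5, Hoxb4, Hoxc4, Hoxd3, Hoxd4, Hoxd8 and Hoxd10. Of these genes, Hoxd3, Hoxd8 and Hoxd10 were not above 1 on replicate 1. Genes above 1 on replicate 1 had 6 windows, and 4 of the 6, those printed, held the half-site. Direct repeats of the half-site with a spacing of 5 bases (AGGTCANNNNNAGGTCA) or 2 bases (AGGTCANNAGGTCA), the usual form of a retinoic acid response element, were in 0 of the 24 windows, and each was in 0.01% of all windows. The composite site TGATNNAT that Hox and Pbx proteins can share was in 4 of 24 Hox windows, those of Hoxa2, Hoxb1, Hoxb8 and Hoxd11, or 16.7%, and in 8.85% of all windows. TAATTA, a homeodomain core, was in 2 of 24 windows, both of Hoxd11, or 8.33%, and in 5.29% of all. These matches describe letters in the windows and are not sites shown to be bound. A direct repeat contains the half-site, and the 4 printed windows held none of the other motifs searched.

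Cluster A held the highest Hox value of the series. Hoxa5, which patterns the lung, the neck vertebrae and the caudal medulla, had 5.41 on replicate 1 and -0.54, -0.64 and -0.21 on replicates 2 to 4. That value corresponds to 42.5-fold in the cKO sample of replicate 1, the fifth highest of all genes on that array. Hoxa4, a gene of the caudal hindbrain and neck, had 4.65 on replicate 1, with -1.44, -0.32 and 0.60 on replicates 2 to 4. Both genes were far above 0 on replicate 1 alone, and the other 3 arrays had no value over 0.60 for either. Hoxa2, which gives the second pharyngeal arch its identity and reaches further forward in the hindbrain than any other Hox gene, had 1.27, -0.20, -0.65 and -1.60 on replicates 1 to 4. Hoxa3, needed for the thymus and the third arch, had 0.50, 0.14, -0.175 and -0.46, and the gap between replicate 1 and the others was small. Hoxa6 and Hoxa7, genes of the thoracic region, had 0.30 and 0.455 on replicate 1, within 1 of their values on the other arrays except for the -1.05 of Hoxa6 on replicate 3. The posterior members of the cluster, Hoxa9 to Hoxa13, had no ratio above 0.50 on replicate 1. Hoxa9, active in blood progenitors and the trunk, had -1.22 on replicate 1 and 0.75, -0.24 and 0.51 on the others. Hoxa11, a gene of the forearm and uterus, had -2.51 on replicate 1 and -0.47, 0.66 and 0.00 on the others. The 20 features listed next to that of Hoxa11 had a median of -0.84 on replicate 1, the lowest such median of the 48 features. Hoxa10 and Hoxa13, of the lumbar region and of the digits, had -0.175 and 0.50 on replicate 1.

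Cluster B had the broadest block of high ratios, with consecutive paralog groups 2 to 6 all above 2 on replicate 1. Hoxb6, a gene of the trunk and caudal hindbrain, had 5.20 on replicate 1 and -0.39, -0.75 and -0.10 on replicates 2 to 4, which is 36.8-fold on that array. Hoxb5, which helps to place the shoulder girdle, had 3.76, with -0.01, -0.05 and -0.69 on the others. Hoxb2, which supports facial motor neuron identity, had 2.56, with -0.18, -0.51 and -1.38. In each of these 3 genes every other array was below 0. Hoxb3, a gene of the caudal hindbrain, had 3.605 on replicate 1 and -0.23, -1.005 and -0.145 on the others. Hoxb4, known for expanding blood stem cells and for its boundary in the caudal hindbrain, had 2.64 on replicate 1, -0.31 and -0.80 on replicates 2 and 3, and 1.36 on replicate 4. Hoxb4 was thus the exception in the block, with a ratio above 1 on replicate 4 too, the array that carried the same wild type sample as replicate 1. Outside the block, Hoxb8, which marks myeloid progenitors, had 1.36, -0.36, 0.60 and -0.44. Hoxb1, the gene of the rhombomere that makes facial motor neurons, had -0.19, 0.37, -0.40 and 1.10. Hoxb7 had -0.60, Hoxb9 -0.05 and Hoxb13, a gene of the tail and prostate, 0.45 on replicate 1. Hoxb9 had its extreme on replicate 4, at -1.93.

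In cluster C, Hoxc4, the most anterior gene of this cluster, had 4.62 on replicate 1 and -0.37, -0.72 and -0.285 on replicates 2 to 4. Hoxc5, its neighbour, had 2.98, 0.80, 0.12 and -0.96. Hoxc6, which defines motor neurons of the forelimb level, had 1.155, 0.775, -0.025 and -0.475. The ratio on replicate 1 was smaller with each step from Hoxc4 over Hoxc5 to Hoxc6, but not from Hoxc6 to Hoxc8. Hoxc8, which sets motor pools of the brachial cord, had 1.235, -0.135, -0.45 and -1.28, and was below 0 on every array but replicate 1. Hoxc9, of the thoracic cord, and Hoxc10, of the lumbar cord, had 0.61 and 0.73 on replicate 1, while Hoxc12 and the hair gene Hoxc13 had -0.09 and 0.37. Hoxc12 was highest on replicate 4, at 1.04.

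Cluster D had a single gene above 1 on replicate 1 (1 of 9). Hoxd4, which responds to retinoic acid at its boundary in the caudal hindbrain, had 4.51 on replicate 1 and 0.26, -1.58 and -0.49 on replicates 2 to 4, so its lowest value was on replicate 3. Its neighbour Hoxd3 stayed between -0.07 and 0.07 on all 4 arrays. Hoxd8 had 0.76, -0.33, 0.36 and 1.39, and Hoxd1 0.78, -1.82, -0.10 and 0.55, both without a matching sign across arrays. These were the genes nearest below a ratio of 1 on replicate 1, and Hoxc6 was the nearest above it. Hoxd9 to Hoxd13, which pattern the lumbar region, the limb and the digits, lay between -0.59 and 0.09 on replicate 1.

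**Figure D2:**
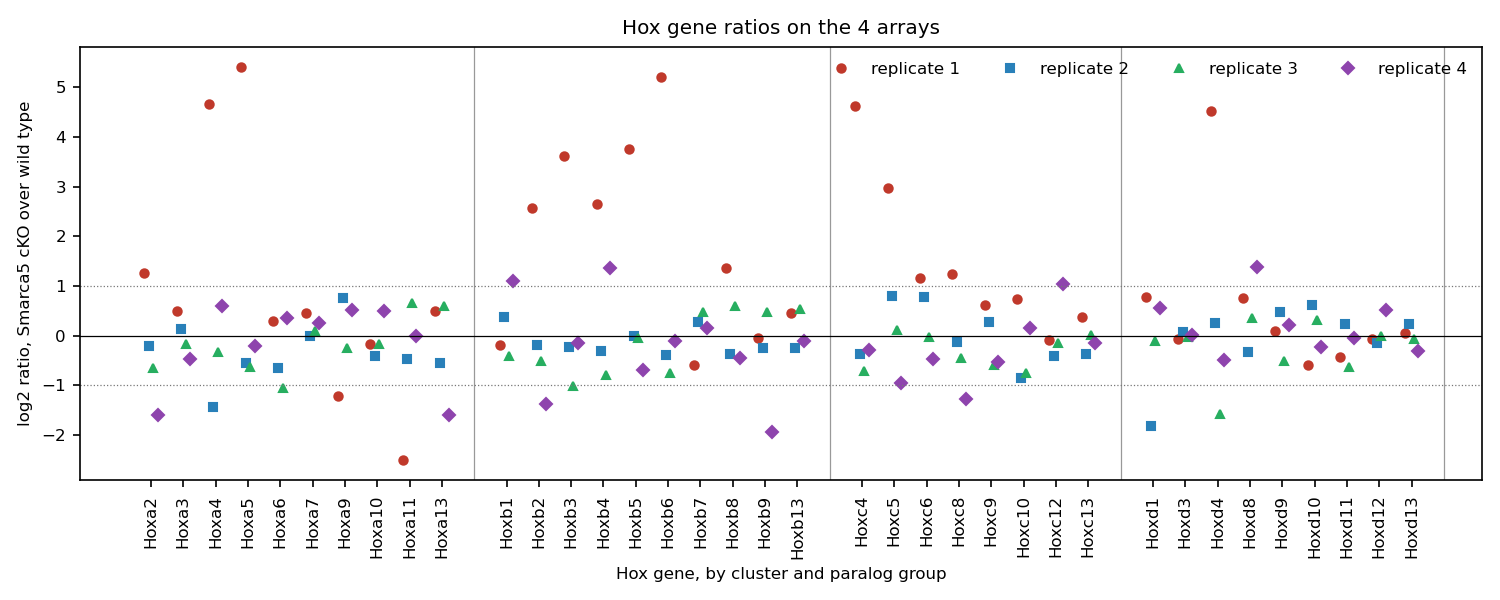
Log2 ratio of cKO over wild type for each of the 37 Hox genes (x axis, by cluster and paralog group) on the 4 arrays, 1 point per array, with dotted lines at 1 and -1. Points of replicate 1 reach 5.41, and the points of the other arrays lie between -1.93 and 1.39.

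Read by paralog group, all 4 genes of group 4 were above 2 on replicate 1. They had 4.65 for Hoxa4, 2.64 for Hoxb4, 4.62 for Hoxc4 and 4.51 for Hoxd4, with a median of 4.56. The 3 genes of group 5 had 5.41 for Hoxa5, 3.76 for Hoxb5 and 2.98 for Hoxc5. Groups 3 and 6 were mixed across clusters. Of group 3, Hoxb3 had 3.605 while Hoxa3 had 0.50 and Hoxd3 -0.07. Of group 6, Hoxb6 had 5.20 while Hoxc6 had 1.155 and Hoxa6 0.30. Both genes of group 7 lay under 0.5, and those of group 8 had 1.36 for Hoxb8, 1.235 for Hoxc8 and 0.76 for Hoxd8.

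Replicates 2 to 4 had no Hox gene above 1.39. On replicate 2, 0 of 37 Hox genes were above 1 and 2 were below -1, where 3.52% and 3.24% of all genes were. Those below were Hoxa4 and Hoxd1. On replicate 3, 0 were above 1 and 3 below -1, where 1.95% and 2.38% of all genes were, and the 3 were Hoxa6, Hoxb3 and Hoxd4. On replicate 4, 4 were above 1 and 5 below -1, where 3.76% and 3.18% of all genes were. The 4 were Hoxb1, Hoxb4, Hoxc12 and Hoxd8, and the 5 were Hoxa2, Hoxa13, Hoxb2, Hoxb9 and Hoxc8. Only Hoxb4 was above 1 on replicate 1 and on a further array.

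On replicate 3 most genes of the block that was high on replicate 1 had ratios below 0. In paralog groups 2 to 6, 14 of 15 genes were below 0 there, with a median of -0.64, where 49.8% of all genes were below 0. The exception was Hoxc5 at 0.12. On replicate 2, 10 of these 15 genes were below 0, with a median of -0.20, and on replicate 4, 11 were, with a median of -0.285. The shares of all genes below 0 were 48.4% and 49.6% on those arrays. Groups 9 to 13 had medians of -0.24, -0.07 and -0.04 on replicates 2 to 4. Across the 37 genes the ratios of replicate 1 correlated with those of replicate 3 at a Pearson r of -0.52 (Spearman -0.43), and with those of replicate 2 at -0.22 (Spearman -0.26). Replicate 2 and replicate 3 had 0.04 (Spearman 0.09), and replicate 2 and replicate 4 had -0.17 (Spearman -0.24). The genes of a cluster share regulation and the genes of a paralog group share sequence, so these points are not independent. The genes were also chosen with the values of replicate 1 known, so the correlations are given as a description.

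Replicates 1 and 3 had the same dye orientation, with cKO in Cy5, and replicate 3 had a median of -0.575 for groups 2 to 5, against 3.29 on replicate 1. Replicates 1 and 4 shared the wild type sample, and replicate 4 had a median of -0.37 for the same 12 genes, 9 of them below 0. The cKO sample of replicate 1 was on no other array, so that sample and the array itself cannot be told apart. The standard deviation over all genes was 0.663 on replicate 1 and 0.557, 0.495 and 0.565 on replicates 2 to 4. The cause of the high ratios on replicate 1 was not tested.

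When the arrays were fitted together with limma, 0 of the 37 Hox genes were called at an adjusted p under 0.05, and 0 of 19909 genes were called higher or lower (0% of those tested in either direction, smallest adjusted p of 1). At an unadjusted p under 0.05 the fit had 155 genes on either side, or 0.779% each, of which 0 were Hox genes. The fitted ratio weighs replicates 1 to 3 equally and gives replicate 4 no weight, since it shares RNA samples with both replicates 1 and 3 and a correlation of 0.5 was assumed for such pairs, where the measured correlations over all genes were 0.012 and -0.044. The median fitted ratio was 0.14 over the Hox genes, of which 26 were above 0, and -0.004 over all genes, of which 49.1% were above 0. Hoxa5 had the highest fitted ratio among Hox genes, at 1.41 ± 1.48 (SE), followed by Hoxb6 at 1.35 ± 1.39 and Hoxc5 at 1.30 ± 1.01. In each of these the SE was close to the ratio itself. With the 4 arrays fitted as independent, each had the same weight. The median over the Hox genes was then 0.075, Hoxa5 had 1.005 and 0 genes were called. At an unadjusted p under 0.05 that limma fit had 995 of 19909 genes, 0 of them Hox genes, where the fit with the assumed correlation had 310. In the fit with the assumed correlation, Hoxa11 had the lowest ratio among Hox genes, at -0.77 ± 0.66 (SE). Without replicate 1 the median was -0.11 over the Hox genes, with 14 above 0 and 23 below, and -0.44 over the 12 genes of groups 2 to 5, with 9 below 0. The ratios then ran from -0.73 for Hoxa2 to 0.40 for Hoxa9. None of the 37 Hox genes had the same sign on all 4 arrays (0), where 2318 of 19909 genes did. Nothing is read from that count, because the values of replicate 1 were used in choosing the genes.

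Genes with several features allowed a check within an array. Of the Hox genes, 10 had more than 1 feature and 27 had 1 feature. Hoxa5, Hoxb6, Hoxa4 and Hoxd4, with ratios above 4.5 on replicate 1, had 1 feature each and could not be checked in this way. Both features of Hoxc4 were high on replicate 1, at 4.21 and 5.02. Both features of Hoxb3 were above 1 there, at 5.42 and 1.79, though they differed. For Hoxc6 they were 1.83 and 0.48, and for Hoxc8 2.35 and 0.12, so a single feature carried the high mean of these genes. Hoxa9 had 3 features at -3.22, 0.06 and -0.49 on replicate 1, so its low mean came from a single feature. Whether the features of a gene match different transcripts is not known here.

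**Figure D3:**
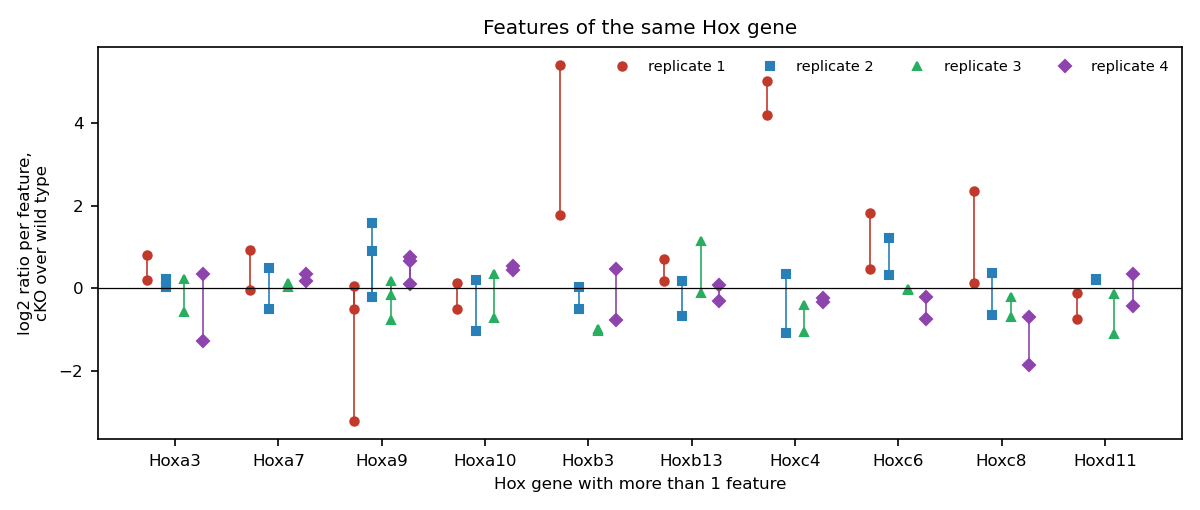
Log2 ratio of cKO over wild type for each feature of the 10 Hox genes with more than 1 feature, with a line joining the features of a gene on the same array. On replicate 1 both features of Hoxc4 and of Hoxb3 lie above 1, and those of Hoxc6 and Hoxc8 lie on both sides of it.

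The features with high ratios were not next to each other in the table. The 18 features of the 14 genes above 1 had feature numbers from 113 to 37875, at least 100 apart. Of the 360 features listed nearest to them, 20 for each, 5.28% were above 1 on replicate 1, and the medians of these sets of 20 lay between -0.72 and 0.28. Single neighbours could still be extreme. The highest neighbour was at 6.13 for the Hoxb3 feature at 5.42 and at 5.91 for the Hoxc4 feature at 5.02. It was at 0.67 for Hoxa5 and at 1.61 for Hoxb6. This measure follows feature numbers, and the place of a feature on the slide is not given in the sources used here.

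Genes next to the clusters were examined beside the Hox genes. Of 26 measured genes flanking the clusters, 1 was above 1 on replicate 1, the adaptor gene Skap2 beside cluster A at 1.62, and their median was -0.005. Of the non-coding genes inside the clusters, selected after the values were seen, 5 were measured. Hoxb5os, antisense to Hoxb5, had 1.69, 0.25, -1.63 and 0.73 on replicates 1 to 4. Hoxd3os1 had 0.63, Hoxaas2 0.44, Hoxaas3 0.08 and Hoxa11os -0.99 on replicate 1. Hoxb5os thus had its highest value on replicate 1 and its lowest on replicate 3. Its partner Hoxb5 was also highest on replicate 1, at 3.76. Hoxb5 had -0.05 on replicate 3, and its lowest value, -0.69, was on replicate 4. The strand that these features read is not given in the sources used here, so an antisense gene and its partner may not be separable.

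Partners and regulators of Hox genes had ratios on both sides of 0 on replicate 1. The 6 measured TALE cofactor genes, of the Pbx, Meis and Pknox families, lay between -0.47 and 0.39 on replicate 1, with 3 above 0. Of 20 genes listed as regulators of Hox expression in the hindbrain or trunk, 2 were above 1 on replicate 1. They were the retinoid-binding protein gene Crabp1 at 1.06 and the nuclear receptor gene Nr6a1 at 1.07. In that list 3 were below -1, the retinal dehydrogenase gene Aldh1a1 at -1.97, Cdx2 at -1.52 and Cdx4 at -1.44, the last 2 being homeobox activators of trunk Hox genes. Of 28 Polycomb and trithorax genes, 2 were above 1, the Polycomb subunit gene Phc3 at 3.71 and Jarid2, a cofactor of the Polycomb complex that methylates histone H3, at 1.20. Ezh2, the methyltransferase of that complex, had -1.01. Phc3 had -0.67, 0.08 and 1.41 on replicates 2 to 4, and 12 of the 28 were above 0 on replicate 1. Limma called 0 of these genes, as it called none overall. Of 71 homeobox genes outside the clusters, 5 were above 1 and 5 below -1 on replicate 1, with a median of -0.075. The shares above 1 on replicate 1 were 10%, 7.14% and 7.04% for the regulators, the Polycomb and trithorax genes and the other homeobox genes, where 5.31% of all genes were above 1. The largest of the homeobox genes were Dlx1, a forebrain interneuron gene, at 2.62, Tlx1 at 1.41 and Irx3 at -1.34, beside the Cdx genes above.

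Marker genes of regions and cell types were set beside the Hox genes, and their part in the Hox values was not tested. Of 26 markers of hindbrain and spinal neurons, 19 were above 0 and 5 above 1 on replicate 1, where 49.4% and 5.31% of all genes were. Their median was 0.475 on replicate 1 and -0.035, -0.02 and -0.095 on replicates 2 to 4, where 12, 11 and 10 of the 26 were above 0. The 5 were Slc6a5, the transporter of glycinergic neurons, at 3.92, Slc18a3, the vesicular acetylcholine transporter, at 1.76, the filament gene Prph at 1.465, the motor neuron gene Lhx4 at 1.23 and the glycine receptor gene Glra1 at 1.02. On replicates 2 to 4, Slc6a5 had -0.55, -1.75 and -0.30, Slc18a3 had -0.28, -0.98 and -0.25, and Prph had -0.325, -0.84 and 0.19. Lhx4 had -0.99, 0.25 and 0.67 there, and Glra1 had 0.48, 0.50 and 0.08. On replicate 1, 7 of the 26 were below 0. They were Tlx3, a marker of dorsal hindbrain and cord neurons, at -1.11, Chat at -0.94 and Pax2 at -0.57. The others were Isl1 at -0.46, Pou4f1 at -0.295, Isl2 at -0.20 and Ddc at -0.065. Oligodendrocyte markers had a median of 0.285 on replicate 1, with 10 of 13 above 0, among them Ugt8a, an enzyme of myelin lipids, at 2.54 and Mbp, a myelin protein, at 1.155, and Myrf at -1.02. Their medians were -0.05, 0.125 and -0.02 on the other arrays.

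Markers of peripheral glia and sensory ganglia had a median of 0.31 on replicate 1, with 8 of 11 above 0 and Foxd3, a neural crest factor, at 2.22 and the peptide gene Calca at 1.065. On replicate 2 the list had a similar median, 0.24, with 8 of 11 above 0, but Foxd3 had -0.15 and Calca 0.465 there. The medians of the list were 0.035 and -0.17 on replicates 3 and 4. Skeletal muscle markers had a median of 0.13, with 9 of 14 above 0, and Des at 1.99 and Tnni2 at 1.01, and medians of -0.51, -0.40 and 0.18 on replicates 2 to 4. Cartilage and bone markers had 0.03, with 8 of 15 above 0. Their members past 1 in size were Matn4 at 1.82, Matn1 at 1.76 and Col10a1 at -1.87. Meningeal and fibroblast markers had -0.10, with 6 of 13 above 0 and Lum at -1.05. Blood and marrow markers had -0.17, with 5 of 11 above 0 and Cd79a at -1.11. Choroid plexus markers had -0.02, with 3 of 10 above 0 and Kl at 2.74. Forebrain and midbrain markers had -0.26, with 6 of 17 above 0 and Dlx1 as the single gene above 1. Granule cell lineage markers had -0.48 on replicate 1, with 1 of 13 above 0 and Ccnd2 and Neurod1 at -2.035 and -1.13. Their medians were -0.07, -0.34 and -0.64 on replicates 2 to 4. Purkinje cell markers had -0.24, with 2 of 11 above 0 and Pcp4 at -1.16. The medians of the cartilage, meningeal, blood, choroid plexus, forebrain and Purkinje cell lists lay between -0.295 and 0.603 on replicates 2 to 4.

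**Figure D4:**
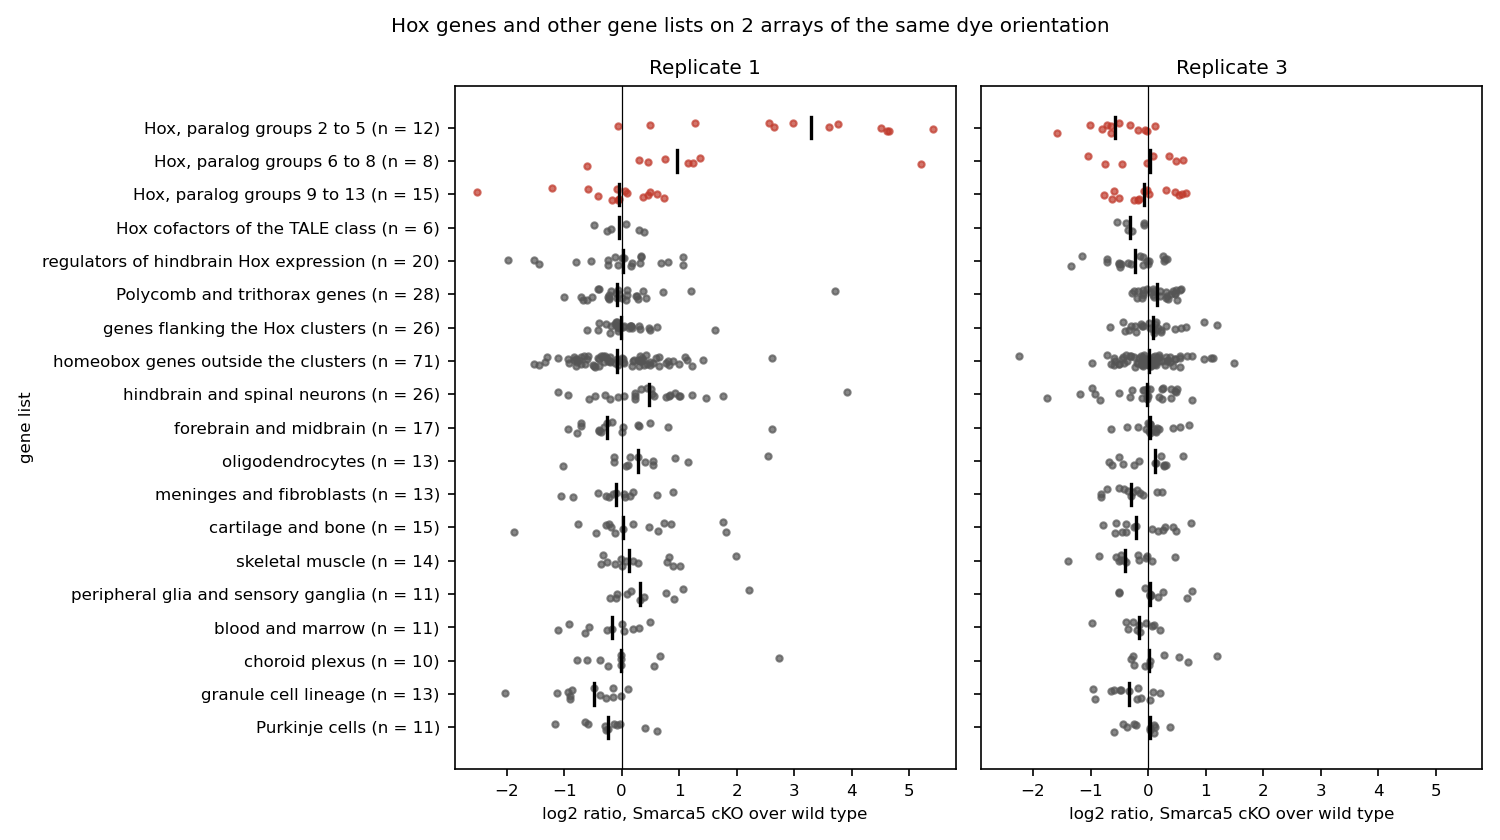
Log2 ratio of cKO over wild type for the Hox genes, in red by paralog group, and for the other gene lists, in grey, on the 2 arrays with cKO in Cy5. Each point is a gene and black bars are medians. On replicate 1 the median of paralog groups 2 to 5 is 3.29, and the medians of the other lists in grey lie between -0.48 and 0.475. On replicate 3 the median of groups 2 to 5 is -0.575.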

How the data were processed

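The authors deposited log ratios of 38880 features on each of 4 two-colour arrays; RNA was isolated with Trizol and labelled with a Genisphere kit, per the labels' protocols. The sources used here give neither scanner, normalization nor log base, and without intensities no filter on dim features could be applied, so all 37 Hox genes were kept. The platform annotation gave 30457 features 1 gene symbol, 8423 none and 0 several. Of 21476 symbols, 12795 were current in RefSeq for GRCm38.p6, 8317 were replaced through a synonym of a single gene and 364 were kept. The deposited ratios, taken as log2, had each array's median subtracted and were averaged over the current name, giving 19909 genes.

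Genes were fitted with limma 3.58.1 in R 4.3.3, two-sided, with an intercept alone, Benjamini-Hochberg adjustment and a correlation of 0.5 between arrays that shared an RNA sample. That correlation was set by hand, not estimated, and the measured ones over all genes were 0.012 for replicates 1 and 4 and -0.044 for replicates 3 and 4. The script was tested on simulated data that had the same correlation of 0.5 built in. That test could not show whether the setting suits these arrays. Results were assembled with Python 3.11.15, pandas 2.3.3, numpy 2.4.6 and matplotlib 3.10.9. Genes past 1 in size on replicate 1 were named, up to 5 in each other list. The members and the lists were chosen with earlier results of these data known. Alternatives were independent arrays, turned dye-flip columns, a dye term, symbols as annotated, single features, uncentred values, scaled arrays and each array left out. Protein sequences were not used here. Promoters are RefSeq's. As 10 of 37 genes had several features, their means can hide disagreement. No depth applies to array ratios.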

Additional observations from a re-analysis of the deposited data

Results flagged for a closer look

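For 46 values, the 37 Hox genes and 9 medians over Hox genes, the gap between the highest or lowest array and the nearest other array was compared with the whole range of the 4 arrays. In 9 of them that gap exceeded Dixon's critical share of the range. Replicate 1 was the highest in 4 genes, Hoxa5 (5.41), Hoxb6 (5.20), Hoxc4 (4.62) and Hoxb5 (3.76). It was also the highest for the median of all Hox genes (0.50), of cluster B (1.96), of cluster C (0.94) and of paralog groups 2 to 5 (3.29). Replicate 2 was the lowest for the median of groups 9 to 13 (-0.24), a gap of small size. Chance puts about 1 in 20 groups of samples past that share, but this rate is no measure for these values, because replicate 1 was known to differ when the genes were chosen, the medians are taken over the same genes, and arrays that share RNA samples are not independent. The 9 values are therefore given as a description.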

How the results depend on the processing

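No gene was called under any setting run (0 in each, limma with Benjamini-Hochberg adjustment), and 0 Hox genes were. An unadjusted p under 0.05 was had by 310 genes, by 995 with independent arrays, by 621 with a dye term, by 934 without replicate 4 and by 139 without replicate 2. The median fitted ratio of the Hox genes was 0.14, and 0.247 with dye-flip columns turned, 0.075 with independent arrays, and between -0.109 (without replicate 1) and 0.27 (without replicate 2) when an array was left out. Leaving out replicate 1 changed the sign of the fitted ratio in 22 of 37 Hox genes, replicate 3 in 12, independent arrays in 11 and turned columns in 10, and none of these ratios was called. On replicate 1 the count of Hox genes above 1 stayed at 14 with symbols as annotated, uncentred values and scaled arrays, and single features gave 16. The median of paralog groups 2 to 5 was 2.90 with scaled arrays, 2.98 with single features and 3.29 to 3.30 otherwise. Turning the dye-flip columns leaves replicate 1 as it is, and if the whole table runs wild type over cKO, every sign here is the opposite. Each array pairs a cKO with a wild type sample, so the fit of the ratios is already a paired one and no further block was fitted. Signal over background was not used here, so how far dim features limit a ratio is unknown.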
